A study of Mus musculus with 15 samples.

Results

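Krüppel-like factors (KLFs) are zinc finger transcription factors, and 10 of their genes (*Klf2*, *Klf3*, *Klf4*, *Klf5*, *Klf6*, *Klf7*, *Klf9*, *Klf10*, *Klf13* and *Klf15*) were followed in mouse ear RNA. They were found by their exact symbols among 21110 genes in the expression files, which also hold 7 other KLF genes and 9 genes of the related Sp family. All 10 passed the filter on low values in every comparison, *Klf7* at 10 weeks through its *Socs3* cKO libraries alone. RNA from whole ear was sequenced in 15 libraries of C57BL/6 mice: 4 wild type (WT) and 4 *Socs3* cKO libraries at 2 weeks after birth, and 3 WT and 4 *Socs3* cKO libraries at 10 weeks. The *Socs3* cKO mice carry a conditional knockout of *Socs3*, a feedback inhibitor of cytokine signalling through STAT3, that is specific to cells expressing keratin 5, the keratin of basal keratinocytes. Cells of the ear that do not come from keratin 5-expressing cells keep the gene by design. The labels name keratinocytes as the source while the protocol describes ear specimens. The values are FPKM, read numbers scaled by the length of the gene and the size of the library. They were compared on a log2(FPKM + 0.1) scale with limma, and a gene was called changed at a Benjamini-Hochberg adjusted p below 0.01 together with a log2(FC) of at least 1 in size.

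KLF proteins bind GC-rich and CACCC sequences through C2H2 zinc fingers at their carboxyl end, and their other domains recruit coactivators or corepressors. In skin, KLF4 is known for barrier formation in the differentiating epidermis and KLF5 for proliferation of basal keratinocytes, whereas KLF2 is best known in endothelium and T cells. KLF9 and KLF15 are induced by glucocorticoids and KLF10 by TGF-beta. KLF9, KLF10 and KLF13 act largely as repressors that bind the SIN3 corepressor, and KLF3 is a repressor that binds CtBP.

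The DNA just upstream of these genes is shown for 5 of them, because *Klf9*, *Klf3*, *Klf6* and *Klf7* were called at 10 weeks and *Klf2* had the largest difference in size at 2 weeks. The sequences are the 250 bases before the annotated start, 5′ to 3′ on the strand of the gene, from RefSeq on GRCm38.p6, a later build than the mm9 build of the expression files. Capitals mark matches on either strand to a STAT site (TTCNNNGAA), an AP-1 site (TGANTCA), the core of a cyclic AMP response element (TGACG), a MEF2 site (CTA, any 4 bases, TAG) or an E-box (CACGTG). RefSeq entries were matched for 8 of the 10 genes; *Klf5* and *Klf10* were not matched. *Klf9* lies at chr19:23140976-23141225, plus strand, *Klf2* at chr8:72318812-72319061, plus strand, *Klf6* at chr13:5861239-5861488, plus strand, *Klf3* at chr5:64803271-64803520, plus strand and *Klf7* at chr1:64121390-64121639, minus strand.
Klf9: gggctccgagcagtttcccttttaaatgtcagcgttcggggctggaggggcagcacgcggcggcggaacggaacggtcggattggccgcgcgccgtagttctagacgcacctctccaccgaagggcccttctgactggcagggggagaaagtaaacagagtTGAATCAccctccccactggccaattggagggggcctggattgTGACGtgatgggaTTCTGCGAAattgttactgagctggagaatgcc
Klf2: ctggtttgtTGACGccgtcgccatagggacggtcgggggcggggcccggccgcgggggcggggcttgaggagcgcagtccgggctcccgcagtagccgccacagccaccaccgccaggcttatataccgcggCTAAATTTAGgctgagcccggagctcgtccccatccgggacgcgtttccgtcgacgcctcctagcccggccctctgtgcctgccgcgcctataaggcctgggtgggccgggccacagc
Klf6: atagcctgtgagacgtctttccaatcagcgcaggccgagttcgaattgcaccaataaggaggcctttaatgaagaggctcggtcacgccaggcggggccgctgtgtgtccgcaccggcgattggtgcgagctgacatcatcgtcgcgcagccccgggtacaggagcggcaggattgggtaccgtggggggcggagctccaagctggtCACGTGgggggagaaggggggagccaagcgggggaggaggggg
Klf3: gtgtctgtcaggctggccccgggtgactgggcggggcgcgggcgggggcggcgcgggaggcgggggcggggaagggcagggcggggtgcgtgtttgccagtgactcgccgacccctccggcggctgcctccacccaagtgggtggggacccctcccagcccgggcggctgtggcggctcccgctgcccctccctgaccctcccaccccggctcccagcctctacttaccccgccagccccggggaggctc
Klf7: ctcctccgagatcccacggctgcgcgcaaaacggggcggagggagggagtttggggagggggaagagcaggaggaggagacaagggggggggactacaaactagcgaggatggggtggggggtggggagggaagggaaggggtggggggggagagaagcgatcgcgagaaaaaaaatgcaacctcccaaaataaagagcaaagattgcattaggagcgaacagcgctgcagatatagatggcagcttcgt

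*Klf9* was the only 1 of the 8 with a STAT match, at position -33 from the start, and the only 1 with an AP-1 match, at position -89. A STAT match was present in 7.02% and an AP-1 match in 6.75% of 32851 promoters of the same length. The MEF2 match of *Klf2* lay at position -118, and 3.20% of promoters held such a match. The E-box was found in *Klf4*, *Klf6* and *Klf15* (6.02% of promoters) and the TGACG core in *Klf2*, *Klf4*, *Klf9*, *Klf13* and *Klf15* (17.8% of promoters), while none of the 8 held the full element TGACGTCA (1.55% of promoters). The GC box GGGCGG, a sequence that Sp and KLF proteins can bind, was present in 7 of the 8, all but *Klf9*, against 32.7% of promoters. *Klf3* alone held 6 of them. CACCC was present in 6 of the 8, against 52.0% of promoters. The 8 windows were 59.2% to 78.4% GC, and the promoters they were set against were not matched for GC content. A CArG box, the site of serum response factor, was present in none of the 8 and in 1.47% of promoters. The full element contains the TGACG core, so that a match to it counts under both. These matches describe letters in the window and were not tested as binding sites.

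*Socs3* itself went against its label at 10 weeks. Its FPKM was 2.76, 4.81 and 2.02 in WT and 36.5, 29.8, 47.7 and 32.4 in the libraries labelled *Socs3* cKO, with a log2(FC) of 3.54 ± 0.29 (SE; limma adjusted p = 7.20e-05). At 2 weeks it was 9.71, 10.2, 10.3 and 10.3 in WT and 1.25, 9.32, 12.6 and 3.51 in the labelled libraries, and the groups overlapped. The value covers the whole gene and all cells of the ear, so it does not show the deletion in keratinocytes, and the groups are called cKO-labelled from here on. Keratinocyte markers such as *Krt5* and *Krt14* were present in every library, and their summed FPKM was between 7573 and 15176 over 10 genes. Relative depth, read from the step that 1 read makes in low values, differed by up to 1.43-fold across the 15 libraries. The libraries also differed in their trend with GC content, from 0.51 to 0.55 on the log2 scale per 10 percentage points in WT at 2 weeks to between -0.033 and 0.24 in WT at 10 weeks and between -0.31 and -0.057 in the cKO-labelled libraries at 10 weeks. The cKO-labelled library 1 at 2 weeks stood apart at -1.37, against -0.20 to -0.076 in the other 3 of its group. Genes listed at 0 numbered 1414 to 3176 in WT at 10 weeks and 4044 to 4423 in the other groups. Within WT at 10 weeks, 2087, 3176 and 1414 genes were at 0 in libraries 1, 2 and 3. The log2 trend per doubling of transcript length was -0.36, -0.059 and -0.32 in the same libraries. It was -0.16 to 0.15 in the cKO-labelled libraries at 10 weeks. At 2 weeks it was 0.21 to 0.30 in WT and -0.51 to 0.19 in the cKO-labelled libraries. The library numbers in the titles fall in a separate range for each group, so that any handling that went with them and the group cannot be told apart.

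*Klf4* had the highest FPKM of the 10 genes in all 4 groups and *Klf7* the lowest. Summed FPKM over the 10 genes was 307 ± 14.0 in WT and 226 ± 89.0 in cKO-labelled libraries at 2 weeks (SD, n = 4 each), and 188 ± 49.8 in WT (SD, n = 3) and 456 ± 113 in cKO-labelled libraries (SD, n = 4) at 10 weeks. Every cKO-labelled sum at 10 weeks, from 313 to 581, lay above every WT sum at that age, from 133 to 231. *Klf4* made up 39.1% ± 0.90 of the sum in WT and 42.0% ± 1.63 in the cKO-labelled group at 2 weeks, and 54.2% ± 2.90 and 43.3% ± 3.78 at 10 weeks (SD, n as above). *Klf9* made up 4.42% ± 0.35 in WT at 2 weeks and 1.71% ± 1.41 in WT at 10 weeks, against 5.44% ± 0.76 and 8.50% ± 1.66 in the cKO-labelled groups. In bulk ear RNA, fewer cells of a type and less RNA per cell cannot be told apart.

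**Figure D1:**
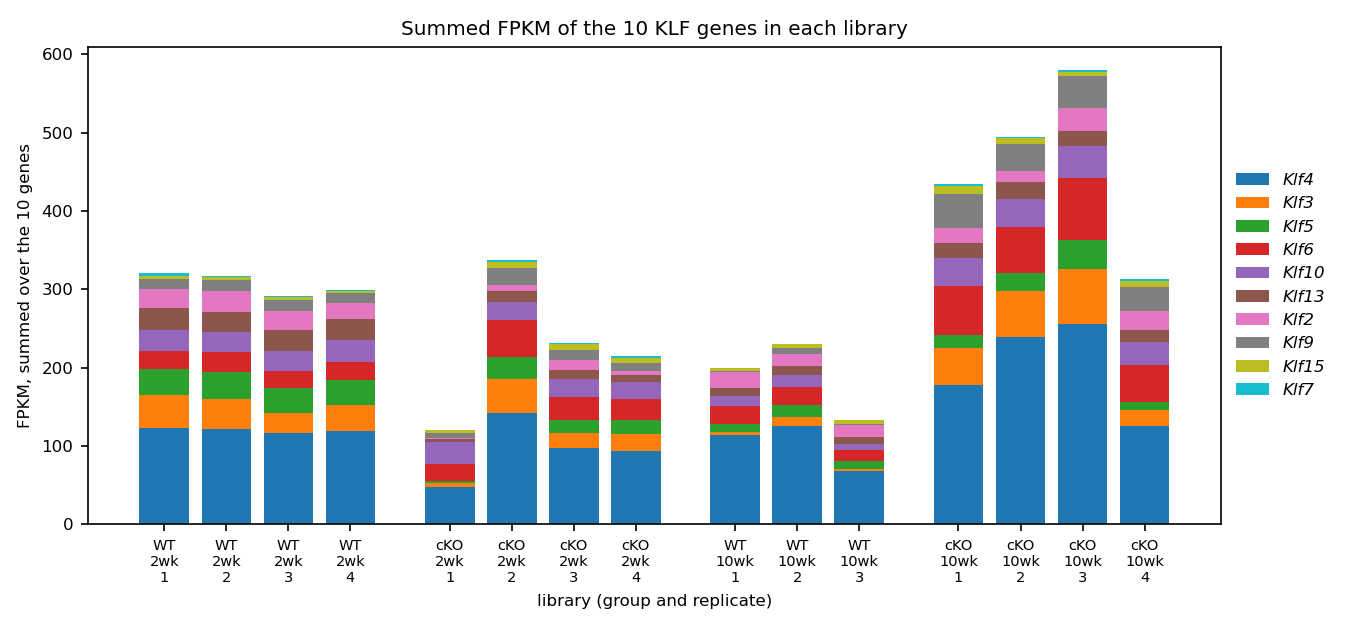
Stacked bars show FPKM summed over the 10 KLF genes (y axis, FPKM) in each of 15 libraries (x axis, group and replicate), with a colour for each gene. The 4 cKO-labelled bars at 10 weeks reach 313 to 581 and all stand above the 3 WT bars at that age, while the cKO-labelled library 1 at 2 weeks is the shortest bar at 120.

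At 10 weeks, the comparison asked how the ear differed once the cKO mice were adults. 5 of the 10 KLF genes were called and all 5 were higher in the cKO-labelled libraries (*Klf3*, *Klf6*, *Klf7*, *Klf9* and *Klf10*), where 14.9% of 13105 genes were called in either direction and 12.5% were called higher. The median log2(FC) of the 10 was 1.29, against 0.31 over all genes tested, and 9 of the 10 lay above that median. For 7 of the 10 the cKO-labelled libraries lay above every WT library, which held for 31.2% of all genes. *Klf7* passed the filter only through the group where it was high and so had to differ; among the other 9 genes, 4 were called and 6 did not overlap. An exact permutation test of 3 against 4 libraries cannot go below p = 0.0571, and all 7 reached that value. The all-gene split moved with scaling, from 1638 higher and 319 lower as deposited to 923 higher and 776 lower after quantile normalization, where the median of all genes was -0.024, and all 5 KLF calls were made under both.

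*Klf9* (mm9 chr19:23215716-23241401, plus strand), the glucocorticoid- and thyroid hormone-induced repressor, showed the largest difference of the 10. Its FPKM was 2.16, 7.66 and 0.964 in WT and 43.2, 35.3, 40.6 and 31.1 in the cKO-labelled libraries. The groups were well apart, and the spread lay mostly within WT, where library 2 was highest. WT libraries 1 and 3, with the lower values, also had the more negative length trend and the fewer genes at 0. Any link of these traits to the *Klf9* values was not tested. The log2(FC) was 3.82 ± 0.53 (SE), a 14.1-fold difference (limma adjusted p = 0.00103). It ranged from 3.16 without WT library 3 to 4.59 without WT library 2, and the call was kept in both.

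*Klf10* (mm9 chr15:38221219-38230464, minus strand), first described as a TGF-beta-inducible early gene, had an FPKM of 12.8, 14.6 and 7.52 in WT and of 34.96, 35.6, 40.8 and 29.2 in the cKO-labelled libraries. All 4 of the latter stood above WT, and its log2(FC) was 1.63 ± 0.24 (SE; limma adjusted p = 0.00133). *Klf13* (mm9 chr7:71031237-71083801, minus strand), which is known to activate the chemokine gene *Ccl5* in T cells, had an FPKM of 10.9, 11.4 and 9.52 in WT and of 20.2, 21.5, 19.9 and 15.3 in the cKO-labelled libraries. These groups did not overlap either. Its log2(FC) was 0.84 ± 0.18 (SE; limma adjusted p = 0.00608), below the size needed for a call.

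*Klf3* (mm9 chr5:65194628-65221368, plus strand), the CtBP-binding repressor, varied widely between libraries of a group. Its FPKM was 3.77, 11.2 and 2.27 in WT and 48.4, 59.0, 71.2 and 21.2 in the cKO-labelled libraries. WT library 2 was the highest and cKO-labelled library 4 the lowest of its group, yet the groups did not overlap. As for *Klf9*, the lower WT values came from libraries 1 and 3. The log2(FC) was 3.28 ± 0.53 (SE; limma adjusted p = 0.00203). The call was lost without WT library 1 (log2(FC) 3.14, limma adjusted p = 0.0105) or without WT library 3 (2.79, limma adjusted p = 0.0118), and the value was 3.92 without WT library 2. The share of all genes called fell from 14.9% to 7.23% without library 1 and to 5.76% without library 3.

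*Klf6* (mm9 chr13:5860735-5869639, plus strand), which is known to be induced by tissue injury, had an FPKM of 22.3, 22.6 and 14.3 in WT and of 62.8, 57.9, 79.0 and 47.5 in the cKO-labelled libraries. The lowest cKO-labelled value was above the highest WT value by a wide gap. Its log2(FC) was 1.65 ± 0.23 (SE; limma adjusted p = 0.00102). *Klf7* (mm9 chr1:64076021-64168856, minus strand), known from the development of neurons, was the weakest of the 10. Its FPKM was 0.106, 0.497 and 0.269 in WT and 3.46, 1.86, 2.54 and 1.58 in the cKO-labelled libraries, from 2, 8 and 5 reads and from 65, 38, 48 and 32 reads. Read numbers were recovered for 9 of the 10 genes, all but *Klf13*, as the smallest numbers within 0.03 of a whole number in every library. For *Klf7* the log2(FC) was 2.72 ± 0.42 (SE; limma adjusted p = 0.00158) on few reads. Its size depended on the pseudocount, and was 1.36 with 1 and 3.15 with 0.01 added to the FPKM. In the GENCODE annotation *Klf7* also overlaps exons of *Gm17427*, a long noncoding RNA gene on the opposite strand, over 3196 bases. The library kit does not mark strand, so reads from the overlap cannot be told apart. The exons that the authors counted for *Klf7* are not given in the sources used here. In library 2 of WT at 2 weeks, 1 read was worth 0.0684 FPKM for *Klf7* and 0.0484 for *Klf2*, whose longest coding transcript has 1847 bases. *Klf7* was thus scaled by a shorter gene length than *Klf2*, and not all of the overlap can have been counted.

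*Klf4* (mm9 chr4:55540013-55545347, minus strand), the factor of the differentiating epidermis, had an FPKM of 114, 126 and 68.1 in WT and of 177, 239, 255 and 125 in the cKO-labelled libraries. WT library 2 and cKO-labelled library 4 had nearly the same value, so the groups overlapped, and its log2(FC) was 0.95 ± 0.30 (SE; limma adjusted p = 0.0307). *Klf5* (mm9 chr14:99697910-99712624, plus strand), the factor of basal keratinocytes, had an FPKM of 10.1 to 15.8 in WT and of 10.0 to 36.4 in the cKO-labelled libraries, and its log2(FC) was 0.67 ± 0.38 (SE; limma adjusted p = 0.188). Neither gene was called. *Klf2* (mm9 chr8:74842932-74845555, plus strand), the flow-induced factor of endothelium, had an FPKM of 19.6, 16.2 and 15.3 in WT and of 18.8, 14.2, 28.7 and 23.2 in the cKO-labelled libraries. Its log2(FC) was 0.28 ± 0.24 (SE; limma adjusted p = 0.375), with a sign that turned to -0.035 after quantile normalization. *Klf15* (mm9 chr6:90412570-90425232, plus strand), a regulator of amino acid and glucose metabolism, had an FPKM of 3.40, 4.77 and 4.79 in WT and of 10.0, 7.22, 5.89 and 8.16 in the cKO-labelled libraries. All 4 of the latter were above WT, with a log2(FC) of 0.83 ± 0.23 (SE; limma adjusted p = 0.0208), and *Klf15* was not called.

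**Figure D2:**
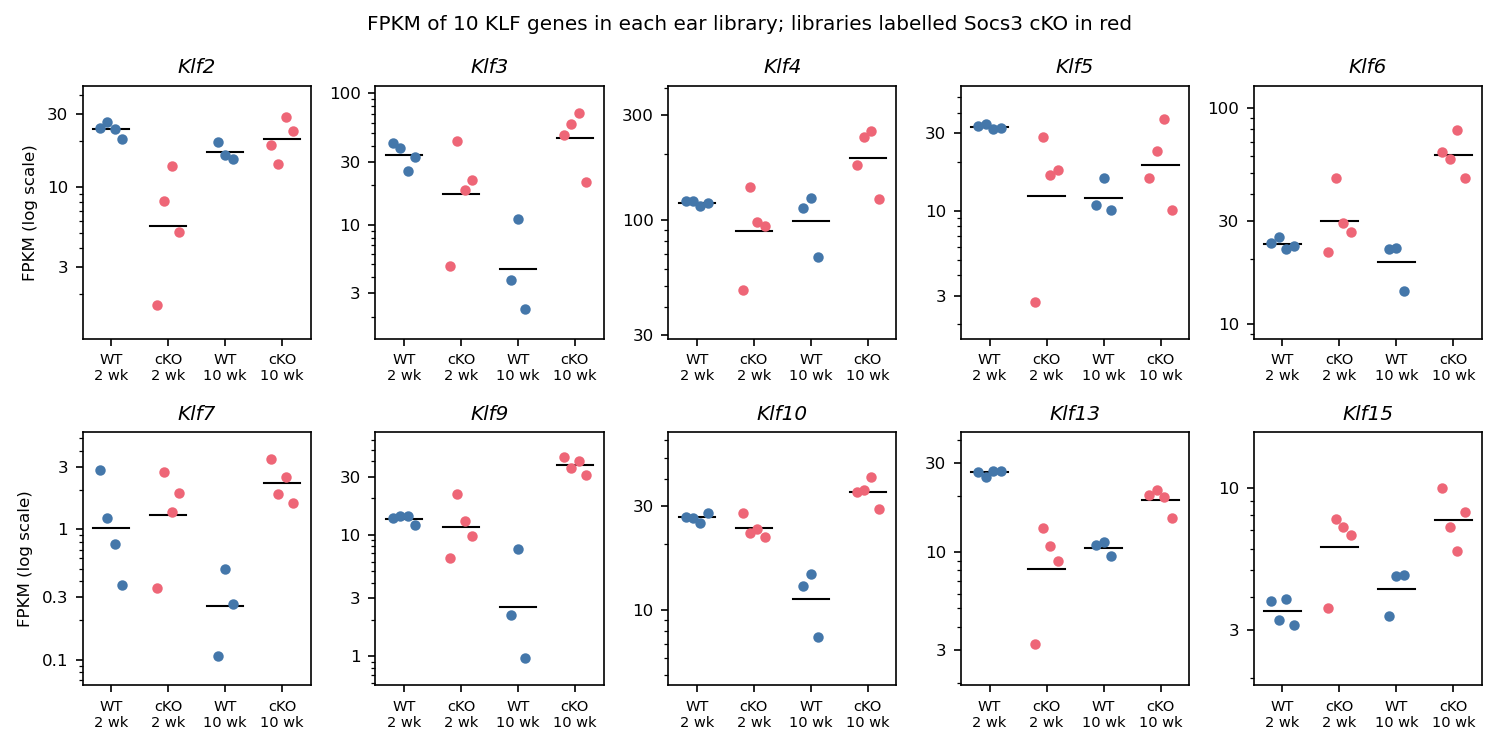
Each panel plots the FPKM of a KLF gene (y axis, log scale) in the 15 libraries by group (x axis), with points for libraries and bars at the group mean of log2(FPKM + 0.1) put back on the FPKM scale. For *Klf9* the cKO-labelled libraries at 10 weeks sit between 31.1 and 43.2 and the WT libraries at 10 weeks between 0.964 and 7.66.

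At 2 weeks, the comparison asked how the ear of young mice differed. limma called 0 of the 10 KLF genes, 3 of the 10 had an unadjusted p under 0.05, and no other tool was run. Of 13524 genes 14.4% were called and 58.0% had an unadjusted p under 0.05. The median log2(FC) of the 10 was -0.33, against -0.21 over all genes. For 3 genes (*Klf2*, *Klf5* and *Klf13*) every cKO-labelled library lay below every WT library, which held for 33.2% of all genes, and each had an exact permutation p of 0.0286, the smallest that 4 against 4 libraries can give. Apart from *Klf3* and *Klf7*, the WT libraries were close together at this age and the cKO-labelled libraries wider apart.

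*Klf2* had an FPKM of 24.5, 26.7, 24.1 and 20.7 in WT and of 1.71, 8.13, 13.7 and 5.06 in the cKO-labelled libraries. Library 1, the one with the steep GC trend, was lowest. The log2(FC) was -2.07 ± 0.54 (SE; limma adjusted p = 0.0164), and without that library it was -1.52 (limma adjusted p = 0.00210), which would be a call. *Klf13* had an FPKM of 27.1, 25.4, 27.4 and 27.2 in WT and of 3.24, 13.5, 10.8 and 9.02 in the cKO-labelled libraries. Its log2(FC) was -1.71 ± 0.39 (SE; limma adjusted p = 0.0105), just outside the threshold, and it was called without library 1 (-1.28, limma adjusted p = 0.000104) and without library 2 (-1.96, limma adjusted p = 0.00497). *Klf5* had an FPKM of 33.2, 34.3, 31.7 and 32.1 in WT and of 2.73, 28.3, 16.6 and 17.8 in the cKO-labelled libraries. Again library 1 was lowest, and its log2(FC) was -1.40 ± 0.62 (SE; limma adjusted p = 0.0900).

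*Klf15* was the 1 gene of the 10 with a higher value at 2 weeks and an unadjusted p under 0.05. Its FPKM was 3.86, 3.29, 3.90 and 3.15 in WT and 3.63, 7.69, 7.21 and 6.74 in the cKO-labelled libraries. All but library 1 lay above WT. The log2(FC) was 0.76 ± 0.25 (SE; limma adjusted p = 0.0352), and without library 1 it was 1.01 (limma adjusted p = 0.000278), which would be a call. *Klf3* had an FPKM of 42.2, 38.4, 25.8 and 33.0 in WT and of 4.90, 43.8, 18.4 and 22.1 in the cKO-labelled libraries, where library 2 exceeded every WT library. Its log2(FC) was -0.99 ± 0.57 (SE; limma adjusted p = 0.174). 

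*Klf9* and *Klf10*, both called at 10 weeks, were not called at 2 weeks. *Klf9* had an FPKM of 13.6, 14.3, 14.1 and 12.1 in WT and of 6.43, 21.5, 12.8 and 9.72 in the cKO-labelled libraries, which lay on both sides of WT. *Klf10* had an FPKM of 26.8, 26.4, 25.2 and 28.0 in WT and of 27.9, 22.6, 23.5 and 21.6 in the cKO-labelled libraries. Library 1 was the highest of the latter for *Klf10* and the lowest for each of the other 9 genes. *Klf6* had an FPKM of 23.7, 25.2, 22.3 and 23.0 in WT and of 21.5, 47.5, 29.3 and 26.6 in the cKO-labelled libraries, of which 3 lay above WT. *Klf7* had an FPKM of 2.84, 1.23, 0.772 and 0.376 in WT, from 47, 18, 15 and 6 reads, and of 0.353, 2.76, 1.36 and 1.91 in the cKO-labelled libraries, from 6, 52, 26 and 40 reads. Its WT libraries were as far apart as its cKO-labelled libraries. *Klf4* had an FPKM of 116 to 123 in WT and of 48.0 to 142 in the cKO-labelled libraries. These 5 genes had a log2(FC) between -0.43 and 0.34, with overlapping groups and limma adjusted p between 0.230 and 0.720. The sign within this range turned with the scaling for *Klf10* (0.047 after median-of-ratios scaling) and *Klf9* (0.082 after quantile normalization).

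The 2 ages were then set against each other. The genotype difference was larger at 10 than at 2 weeks for all 10 genes in value, and the interaction of genotype and age was called (limma adjusted p below 0.01) for 5 of them, all positive: *Klf3* 4.27, *Klf9* 4.05, *Klf13* 2.56, *Klf10* 1.79 and *Klf6* 1.31 on the log2 scale. Among 13937 genes 25.6% were called and 18.5% were called positive, and the median was 0.55. Over all genes 2583 interactions were positive and 983 negative as deposited, and 1888 and 2269 after quantile normalization. The adjusted p was 0.00210 for *Klf3*, 0.000710 for *Klf9*, 0.00110 for *Klf13*, 0.000374 for *Klf10* and 0.00760 for *Klf6* (limma). *Klf6* lost its call in 11 of the 15 fits that left out 1 library, where its value ranged from 1.09 to 1.53. It also lost it after median-of-ratios scaling (0.84, limma adjusted p = 0.0228), after quantile normalization (0.88, limma adjusted p = 0.0318), with the GC and length trend removed (0.78, limma adjusted p = 0.0377) and without a filter on low values (limma adjusted p = 0.0118). *Klf15* had an interaction of 0.069, whose sign turned to -0.39 after median-of-ratios scaling, -0.83 after quantile normalization and -0.87 with the GC and length trend removed. With that trend removed *Klf13* shrank to 0.73 (limma adjusted p = 0.00705), *Klf3* came to 3.30, *Klf9* to 2.95 and *Klf10* to 1.22. These were still called and *Klf2* was called at 1.36, where 24.0% of 13368 genes were called.

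In WT, the 10-week libraries lay below the 2-week libraries for 6 of the 10 genes, which held for 49.5% of all genes. 4 of the 10 were called lower at 10 weeks, where 25.5% of 13937 genes were called and 19.4% were called lower: *Klf3* (log2(FC) -2.87 ± 0.64, limma adjusted p = 0.00238), *Klf9* (-2.36 ± 0.50, limma adjusted p = 0.00179), *Klf13* (-1.33 ± 0.34, limma adjusted p = 0.00571) and *Klf10* (-1.24 ± 0.20, limma adjusted p = 0.000276), each with its SE. Leaving out WT library 3 at 10 weeks took away all 4 calls, and leaving out library 1 of that group kept *Klf10* alone. The share of all genes called also fell, from 25.5% to 15.9% without library 3 and to 16.6% without library 1. Without library 3, *Klf10* missed only the size needed for a call (-0.95, limma adjusted p = 0.000823). The *Klf13* call was lost without any 1 of the 7 WT libraries, and its value was -0.0013 with the GC and length trend removed. *Klf3* and *Klf9* were still called with that trend removed. The WT median over all genes was -0.44, and the median of the 10 was -1.28. Over all genes 861 were called higher and 2698 lower as deposited, and 1622 and 1705 after quantile normalization.

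In the cKO-labelled libraries, all 10 values pointed higher at 10 weeks. limma called 0 of the 10, 7 had an unadjusted p under 0.05, and of 13937 genes 3.54% were called and 26.4% had such a p. For 5 genes (*Klf2*, *Klf6*, *Klf9*, *Klf10* and *Klf13*) every library at 10 weeks was above every library at 2 weeks, which held for 7.71% of all genes in that direction. For *Klf6* the groups barely parted, at 47.52 FPKM (lowest at 10 weeks) and 47.49 FPKM (highest at 2 weeks). For *Klf2* these values were 14.2 and 13.7 FPKM. *Klf2* had the largest log2(FC), 1.86 ± 0.44 (SE; limma adjusted p = 0.0165), and was called without cKO-labelled library 1 at 2 weeks (1.30, limma adjusted p = 0.00890) or without library 3 (2.28, limma adjusted p = 0.00323). *Klf9* followed with 1.69 ± 0.46 (SE; limma adjusted p = 0.0326). *Klf6*, *Klf13* and *Klf4* were called without cKO-labelled library 2 at 2 weeks, at 1.25, 1.47 and 1.33. The comparisons of age share libraries with those of genotype, so their values are given side by side and not compared.

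**Figure D3:**
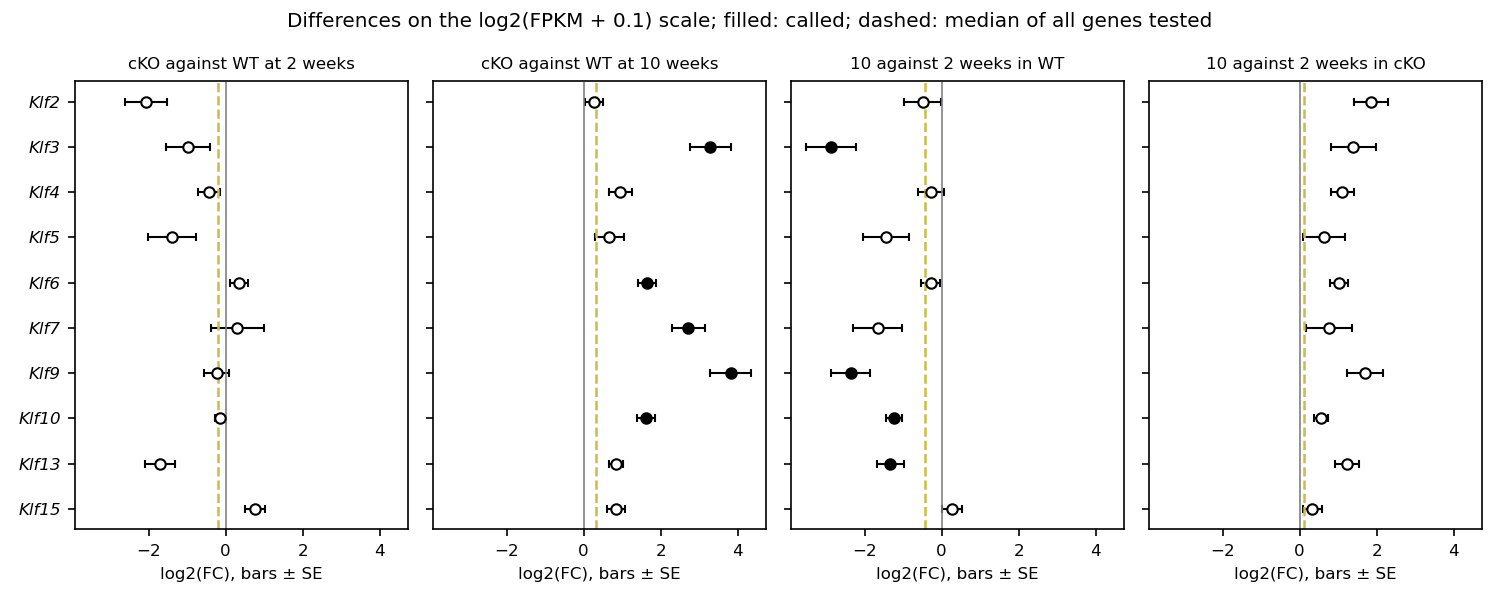
Points show the log2(FC) of each KLF gene (x axis, bars ± SE) in the 4 comparisons, with filled points for called genes and a dashed line at the median of all genes tested. At 10 weeks the points of all 10 genes lie above 0 as deposited (*Klf2* turned to -0.035 after quantile normalization), and 5 are filled; at 2 weeks none is filled.

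GC content differed among the KLF genes, and its trend differed among the libraries. The longest coding transcripts of *Klf2* (61.6% GC) and *Klf5* (60.3%) lie at the 97.4th and 95.5th percentile of genes, and those of *Klf6* (42.4%) and *Klf7* (45.3%) at the 10.5th and 22.6th. The trend of each library with GC content and length was then removed, an alternative chosen after seeing the data. *Klf9* (3.35, limma adjusted p = 0.000981), *Klf3* (3.03, limma adjusted p = 0.00176) and *Klf10* (1.10, limma adjusted p = 0.00108) were still called at 10 weeks. *Klf7* was called too (1.83, limma adjusted p = 0.00492), but it passed the filter only through the group where it was high. Its GC content and length here are those of a 7664-base transcript, longer than the gene length behind its FPKM. Of 12640 genes 10.1% were called at 10 weeks with the trend removed. *Klf6* was below the size needed for a call, at a log2(FC) of 0.92 (limma adjusted p = 0.00348), and *Klf13* came to 0.20. At 2 weeks *Klf2* came to -0.94, *Klf5* to -0.44 and *Klf13* to -0.49, *Klf4* and *Klf9* turned to 0.44 and 0.43, and *Klf15* was called at 1.49 (limma adjusted p = 3.05e-05). Of all genes 13.0% were called at 2 weeks with the trend removed. The median of the 10 genes was then 0.021 at 2 weeks and 0.87 at 10 weeks, with medians over all genes of 0.038 and -0.083. GC content and length were removed together, and the part of either alone was not tested.

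**Figure D4:**
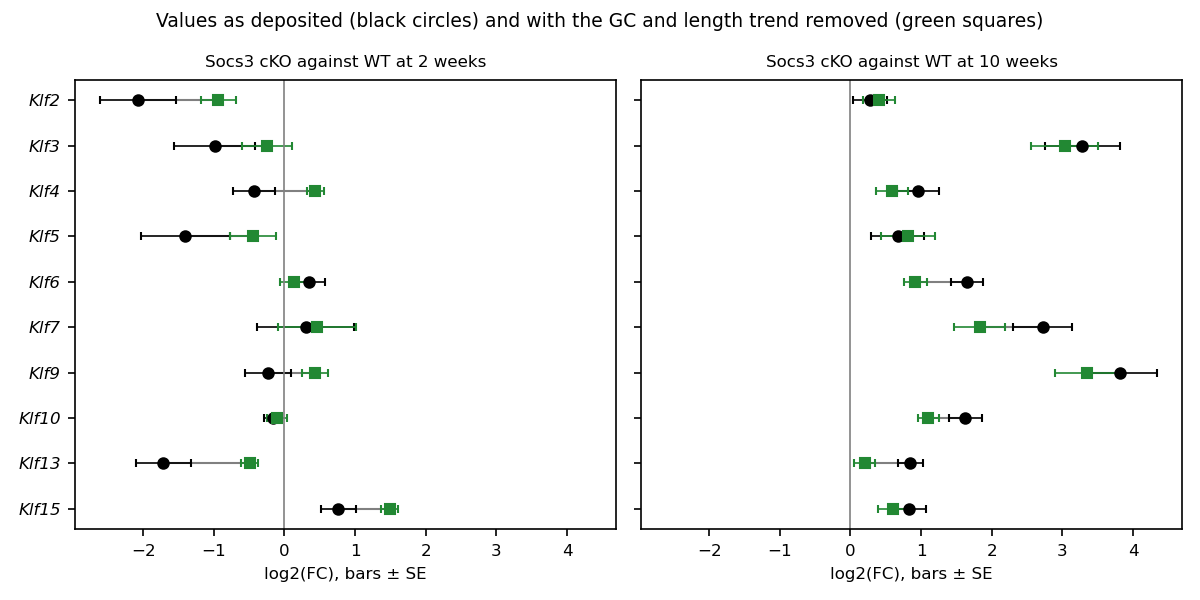
The log2(FC) of each KLF gene between cKO-labelled and WT libraries (x axis, bars ± SE) is drawn at 2 weeks (left) and 10 weeks (right), as black circles for values as deposited and green squares with the GC and length trend removed. *Klf9* and *Klf3* stay above 3 at 10 weeks in both, and the 2-week values of *Klf2*, *Klf5* and *Klf13* move toward 0.

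Of the other 7 KLF genes, 4 could be tested. *Klf16*, a close relative of *Klf9* and *Klf13*, was called higher at 10 weeks (log2(FC) 1.46 ± 0.19, limma adjusted p = 0.000907), at an FPKM of 3.66 to 4.51 in WT and a median of 11.7 in the cKO-labelled libraries. *Klf11*, the closest relative of *Klf10*, had 0.95 ± 0.23 (limma adjusted p = 0.0113) and was not called. *Klf8* and *Klf12* had a median FPKM of at most 1.83 in every group and were not called, and *Klf1*, *Klf14* and *Klf17* were too low to test. Of 9 Sp genes, 6 could be tested. *Sp1*, a widely expressed activator, was called higher at 10 weeks (1.23 ± 0.18, limma adjusted p = 0.00128), and *Sp6*, a factor of hair follicle and tooth epithelium, was called lower at 2 weeks (-1.88 ± 0.38, limma adjusted p = 0.00664). Both calls were lost with the GC and length trend removed, at 0.31 and -0.53. *Sp3* had the highest mean FPKM of the Sp genes in all 4 groups and was not called.

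Partners and regulators of the KLF proteins were taken from lists that hold textbook members. Over all genes 7.24% were called higher and 7.19% lower at 2 weeks, against 12.5% and 2.43% at 10 weeks. Of 14 corepressors, coactivators and ubiquitin ligases, 3 were called higher at 10 weeks and 1 lower at 2 weeks. *Crebbp*, a histone acetyltransferase, had a log2(FC) of 2.20 ± 0.51 and *Wwp1*, a ubiquitin ligase that targets KLF2 and KLF5, of 1.73 ± 0.24 at 10 weeks. *Ctbp2*, a corepressor bound by KLF3, had -1.34 ± 0.23 at 2 weeks, and the calls of *Ctbp2* and *Wwp1* were lost with the GC and length trend removed. Of 7 genes of the ERK5-MEF2 pathway, which drives *Klf2* and *Klf4* in endothelium, 4 were called higher at 10 weeks. They included the transcription factor genes *Mef2a* (3.75 ± 0.43) and *Mef2d* (3.41 ± 0.44) and the kinase gene *Map3k3* (3.12 ± 0.47), while *Mapk7*, which encodes ERK5, was called lower at 2 weeks (-2.23 ± 0.50, lost with the trend removed) and stood at 0.0060 ± 0.29 at 10 weeks.

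Of 12 genes known to be induced by glucocorticoids, as *Klf9* and *Klf15* are, 10 were called higher at 10 weeks and 1, *Tsc22d3*, at 2 weeks, with a median of 2.04 at 10 weeks. *Errfi1*, an inhibitor of the EGF receptor, had a log2(FC) of 3.41 ± 0.29, *Nfkbia*, the inhibitor of NF-κB, of 3.07 ± 0.26, and *Dusp1*, a MAP kinase phosphatase, of 3.02 ± 0.34. Several of these genes also answer to cytokines and stress, so the list is not specific to the hormone. *Fkbp5*, a common readout of glucocorticoid action, had 0.38 ± 0.39 (limma adjusted p = 0.468). Of 7 genes induced by TGF-beta, as *Klf10* is, 4 were called higher at 10 weeks and 1 lower at 2 weeks. *Skil*, a SMAD corepressor, had 2.11 ± 0.23 at 10 weeks, and *Tgif1*, another SMAD corepressor, had 1.45 ± 0.20 at 10 weeks and -1.40 ± 0.30 at 2 weeks.

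Target genes were counted in the same way. Of 4 endothelial targets of KLF2 and KLF4, *S1pr1*, a receptor for sphingosine 1-phosphate, was called higher at 10 weeks (1.43 ± 0.21, lost with the GC and length trend removed) and *Edn1*, the vasoconstrictor endothelin that KLF2 represses, was called lower at 2 weeks (-1.41 ± 0.22). The activated targets *Nos3* and *Thbd* had 0.29 ± 0.31 and 1.16 ± 0.30 at 10 weeks and were not called. Of 8 adipogenesis factors and adipocyte genes, a process in which KLF5 and KLF15 act, *Pparg* was called higher at both ages (1.36 ± 0.17 at 2 weeks and 1.09 ± 0.20 at 10 weeks, both lost with the trend removed) and *Lep* at 10 weeks (2.29 ± 0.34). Of 5 metabolic targets of KLF15, *Pdk4*, which restrains glucose oxidation, was called higher at 10 weeks (1.98 ± 0.23). All errors in these lists are SE from limma.

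Cell type markers were counted in the same way. Of all genes 7.24% were called higher and 7.19% lower at 2 weeks, against 12.5% and 2.43% at 10 weeks. At 10 weeks 0 of 10 keratinocyte and 0 of 4 hair follicle markers tested were called. Of 10 endothelial markers, 4 were called higher at 10 weeks (*Pecam1*, *Cdh5*, *Kdr* and *Erg*), and their summed FPKM over the 10 was 72.8 to 81.8 in WT and 79.0 to 109 in the cKO-labelled libraries. *Cldn5*, another of the 10, had a value in the other direction (log2(FC) -0.91 ± 0.21, limma adjusted p = 0.00973, not called), with every cKO-labelled library (11.2 to 16.8 FPKM) below WT (20.9 to 32.7 FPKM). With the GC and length trend removed, 1 endothelial, 2 leukocyte, 2 adipocyte, 1 cartilage and 0 skeletal muscle markers were called at 10 weeks. The all-gene share was then 10.1%. At 2 weeks 1 fibroblast, 2 keratinocyte, 8 hair follicle, 6 skeletal muscle, 1 adipocyte and 2 cartilage markers were called with the trend removed. The all-gene share there was 13.0%. Of 10 leukocyte markers, 4 were called higher at 10 weeks (*Ptprc*, *Cd68*, *Csf1r* and *Itgam*), with sums of 468 to 740 in WT and 815 to 1409 in the cKO-labelled libraries. Of 10 keratinocyte markers, 3 were called higher at 2 weeks (*Krt14*, *Dsg1a* and *Perp*), while the median log2(FC) of the 10 was -0.34 at that age. Their median was 0.67 at 10 weeks, with sums of 7573 to 12904 in WT and 10338 to 14816 in the cKO-labelled libraries. At 2 weeks, 8 of 8 hair follicle markers were called lower, with sums of 2234 to 3299 in WT and 10.6 to 63.4 in the cKO-labelled libraries. Their sums were 10.6 to 12.3 in WT and 6.86 to 79.8 in cKO-labelled libraries at 10 weeks. At 2 weeks, 5 of 7 skeletal muscle markers were called higher, at sums of 628 to 958 in WT and 1499 to 2999 in the cKO-labelled libraries. At 10 weeks 1 of the 7 (*Mylpf*) was called lower, the median was -0.91, and the sums were 682 to 1150 in WT and 347 to 656 in the cKO-labelled libraries. At 2 weeks, of 7 fibroblast markers 3 were called lower and 1 higher, at sums of 12692 to 14889 and 5127 to 7107. Of 6 adipocyte markers, 2 were called higher at 10 weeks and 1 at 2 weeks, at sums of 329 to 436 in WT and 411 to 795 in the cKO-labelled libraries at 10 weeks. Of 4 cartilage markers tested, 2 were called lower at 2 weeks and 1 at 10 weeks. None of these markers was at 0 throughout a group except 1 cartilage gene at 2 weeks. The part of these cell types in the KLF values was not tested.

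The genes whose log2 profiles over the 15 libraries were closest to those of KLF genes were found by the root mean square of the difference, after each profile was centred. The search covered 13927 genes, and the figure is a description with no test. *Klf13* was closest to *Tle3* (0.171), against a spread of its own of 0.803. *Klf9* was closest to *Gm11710* (0.405) and *Fam171b* (0.468), against 1.44, and *Klf3* to *Il6ra* (0.301) and *Ccdc88c* (0.349), against 1.44. *Klf6* was closest to *Gcnt2* and *Socs6* (0.195 each), *Klf4* to *Rell1* (0.187) and *Ipmk* (0.196), and *Klf10* to *St13* (0.196) and *Emp1* (0.199). *Klf2* was closest to *Igsf8* (0.317), *Klf5* to *Pcdh1* (0.218), *Klf7* to *Rest* (0.387) and *Klf15* to *Pde3b* (0.252). Among the 10 KLF genes themselves the closest pairs were *Klf4* with *Klf6* (0.413) and *Klf5* with *Klf13* (0.462). Each KLF gene was set against 9 others there and against 13927 genes outside, so these distances cannot be compared with those above.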

How the data were processed

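Total RNA of ear specimens was made into libraries with an unstranded TruSeq kit and read as single 50-base reads. Per the labels and the study's methods, the authors aligned reads to mm9 with TopHat2 (2.1.0) and deposited FPKM for 21110 genes, 1 file per library. Cufflinks is also named in the submitters' processing notes; which program made the FPKM is not given in the sources used here. The titles and genotype and age labels gave the groups. Other animals that the study describes were not analysed here.

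From the deposited FPKM, genes with at least 1 FPKM in at least 3 of the compared libraries were tested with limma 3.58.1 (R 4.3.3) on log2(FPKM + 0.1), with a trend in the prior variance. Each genotype comparison used the libraries of its age, and the interaction and age comparisons used all 15. The study counts its ear samples by mice, but the labels do not tie each library to an animal, so p-values measure the spread between these libraries. No count model was run; 9 KLF genes gave whole read numbers relative to library 2 of WT at 2 weeks, and the total depth stays unknown. No 50-base word of a KLF transcript occurred in the transcript of another gene. GC content was matched for 92.1% of genes (GENCODE on mm9). Motifs were searched on both strands. The script was tested on data simulated from the mean and spread of WT at 2 weeks alone. That test covers the code and not the spread or the GC trends of the other groups.

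The KLF genes and the lists were chosen with earlier results of these data known. Named genes are the 10 KLF genes, the other KLF and Sp genes, *Socs3*, up to 3 called genes of each pathway list with the largest log2(FC), and for each KLF gene up to 2 with the closest profile; *Fkbp5*, *Nos3*, *Thbd*, *Tsc22d3* and the markers were named after their values were seen. A few genes that this rule would name are not reported here. Alternatives changed the pseudocount, the filter, the scaling, the prior variance, the libraries in the fit, a replicate block, and the GC and length trend.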

Additional observations from a re-analysis of the deposited data

Results flagged for a closer look

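The genotype difference at 10 weeks minus that at 2 weeks was itself past the threshold (limma interaction, adjusted p below 0.01) for 5 KLF genes. It was 4.27 for *Klf3*, 4.05 for *Klf9*, 2.56 for *Klf13*, 1.79 for *Klf10* and 1.31 for *Klf6* on the log2 scale. Among 13937 genes 25.6% were called and 18.5% were called positive. *Klf6* lost its call in 11 of the 15 fits that left out 1 library. With the GC and length trend removed, *Klf13* shrank to 0.73 and *Klf6* lost its call. For *Klf9* the WT libraries at 10 weeks (0.964 to 7.66 FPKM) lay below WT at 2 weeks (12.1 to 14.3 FPKM), and the cKO-labelled libraries at 10 weeks (31.1 to 43.2 FPKM) lay above all libraries at 2 weeks. For *Klf3* the WT libraries at 10 weeks (2.27 to 11.2 FPKM) lay below WT at 2 weeks, while the cKO-labelled libraries at 10 weeks (21.2 to 71.2 FPKM) overlapped both groups at 2 weeks.

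*Klf13* in WT library 2 at 2 weeks (25.4 FPKM) lay apart from the other 3 of its group (27.1 to 27.4), by more than the 95% limit of Dixon's test. In 30 groups of 4 values tested, chance gives about 1 such value in 20 groups.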

How the results depend on the processing

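At 10 weeks the 5 calls were made with both other pseudocounts, the stricter filter, both scalings, the constant prior variance and the fit of all 4 groups. Without a filter on low values the count was 2 (*Klf6* and *Klf10*), and *Klf3*, *Klf7* and *Klf9* had limma adjusted p of 0.0110 to 0.0186. Leaving out 1 library gave 4 to 5. Of all genes 14.9% were called at 10 weeks in the main fit, 5.36% without a filter and 5.76% to 20.7% without 1 library. At 2 weeks the count of 0 became 2 with a pseudocount of 1 and with all 4 groups in the fit, 1 with the stricter filter, after median-of-ratios scaling and with the GC and length trend removed, and 3 after quantile normalization, and leaving out 1 library gave 0 to 3. The share of all genes called at 2 weeks moved too, from 14.4% to 15.4% with a pseudocount of 1, 23.7% with all 4 groups, 17.0% and 19.9% after the scalings and 19.9% without cKO-labelled library 1. For the interaction, leaving out 1 library gave 4 to 7 and the other settings 4 to 6, with *Klf6* lost after both scalings, without a filter and with the trend removed. The share of all genes with a called interaction was 25.6% in the main fit, 14.4% to 36.8% without 1 library and 18.3% to 29.8% with the other settings. For age in WT the count of 4 became 2 after each scaling and with the trend removed (0 to 3 without 1 library). There the all-gene share went from 25.5% to 23.7% and 23.9% after the scalings, 17.2% with the trend removed and 15.9% to 27.6% without 1 library. For age in the cKO-labelled libraries the 0 became 2 after each scaling and 3 with the trend removed (0 to 3 without 1 library). Here the all-gene share went from 3.54% to 3.83% and 3.70% after the scalings, 5.51% with the trend removed and 2.16% to 5.03% without 1 library.

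Signs turned in values that were not called. At 2 weeks *Klf10* came to 0.047 after median-of-ratios scaling, *Klf9* to 0.082 after quantile normalization and 0.43 with the trend removed, and *Klf4* to 0.44 with the trend removed, and without 1 library *Klf7* ranged from -0.11 to 0.85 and *Klf9* from -0.54 to 0.040. At 10 weeks *Klf2* came to -0.035 after quantile normalization. The interaction of *Klf15* came to -0.39 after median-of-ratios scaling, -0.83 after quantile normalization and -0.87 with the trend removed, and ranged from -0.17 to 0.20 without 1 library. For age in WT, *Klf4* came to 0.12 and 0.64, *Klf6* to 0.11 and 0.24, after median-of-ratios scaling and with the trend removed, *Klf6* to 0.084 after quantile normalization, and *Klf2* to 0.077 with the trend removed. For age in the cKO-labelled libraries *Klf5* ranged from -0.085 to 1.03 without 1 library. The cause was not tested. Of 919 refitted values of single genes 824 kept their sign and their side of the threshold.

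With the replicate number as a block, 0 KLF genes were called at 2 weeks, 5 at 10 weeks, 5 for the interaction, 4 for age in WT and 0 for age in the cKO-labelled libraries, and over all genes 751 against 1951 were called at 2 weeks. The all-gene shares with the block were 5.55%, 14.5%, 24.1%, 24.7% and 2.58% in the same order. Same-numbered libraries did not deviate together (correlations of -0.04 to 0.14 at 2 weeks and -0.21 to 0.07 at 10 weeks). The labels do not say whether they share more than a number, and so few pairs cannot settle it. Over all genes at 10 weeks the calls were 1073 higher and 632 lower after median-of-ratios scaling, and 750 and 529 with the trend removed. Depth limits *Klf7*, which rests on 2 to 65 reads a library.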
